A study of Mus musculus with 6 samples.

Results

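Lyve1/Folr2 macrophages made up 445 of the 50973 barcodes kept from 5 sciatic nerve libraries, and 445 of 3438 macrophages. They were chosen by transcripts found in the barcode itself, so the genes of that choice are described here and not tested. A macrophage had at least 1 unique molecular identifier (UMI, a tag that counts each captured transcript once) for 3 or more of C1qa, C1qb, C1qc, Csf1r and Adgre1, and none for Sox10, Pdgfra or Cdh5. A member also had 2 or more of Fcna, Lyve1, Folr2, Cd163 and Clec10a (the 5 markers) and neither Cx3cr1 nor Trem2. Each library pooled the sciatic nerves of C57BL/6 mice of both sexes, with no treatment named, at postnatal day 0 (P0, 12 males and 10 females), 7 (P7, 10 and 11), 14 (P14, 10 and 8), 28 (P28, 9 and 6) or 60 (P60, 5 and 8). Nerves were minced, digested with collagenase and papain, and cleared of red cells and of dead cells before capture. Every age had 1 library, so no difference between ages has a replicate check or a p-value, and each interval (exact, 95%) covers counting error only.

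Peripheral nerve holds resident macrophages in its outer sheath, the epineurium, and among the nerve fibres of the endoneurium. Macrophages of connective tissue sheaths, which often lie beside vessels, are known for Lyve1 (a hyaluronan receptor), Folr2 (folate receptor beta), Cd163 (the haptoglobin-haemoglobin scavenger receptor), Clec10a (a galactose-type C-type lectin) and the mannose receptor Mrc1. Endoneurial macrophages are known for the fractalkine receptor Cx3cr1 and for Trem2, a lipid-sensing receptor, which they share with microglia. No position in the nerve was measured, so the word epineurial could not be checked here.

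The identity of the members was checked against genes the choice had not used. Mrc1 was found in 73 of 81 members at P14, 75 of 79 at P28 and 269 of 272 at P60, against 3.50%, 3.69% and 4.87% of the Sox10-positive, Ptprc-negative glial barcodes of those libraries, whose median depths were 4559, 2805 and 3826 UMIs. It marks macrophages and not members alone, with a UMI in 85.5%, 83.7% and 91.5% of the Cx3cr1 or Trem2 macrophages with fewer than 2 markers and 94.2%, 89.7% and 99.3% of those with both sets. Lyve1 also marks lymphatic endothelium, but the summed level of 6 lymphatic markers in members was 4.87, 27.6 and 7.23 UMIs per 1000000 (CPM) at P14, P28 and P60, with 2 of the 6 at 0. Markers of mast cells, T and NK cells, neutrophils and B cells summed to at most 40.0 CPM in these members. Monocyte markers summed to 1600, 1004 and 1314 CPM and dendritic markers to 94.95, 27.6 and 125 CPM, and the monocyte receptor Ccr2 was found in 27.2%, 40.5% and 29.4% of members.

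Several libraries stood apart. Xist, the X-inactivation transcript of female cells, was at 452, 894 and 479 CPM over all kept barcodes at P0, P7 and P14, but at 0.515 CPM at P28 and 0.275 CPM at P60, although the labels give 6 and 8 females there. The Y-linked Ddx3y lay between 21.5 and 107 CPM in every nerve library. The sex makeup of the libraries labelled P28 and P60 therefore goes against their labels, and age and sex cannot be told apart between P14 and the later libraries. Members at P28 were shallow (median 1736 UMIs, against 3462 at P14 and 5890 at P60) and held 9921 CPM of summed mesenchymal markers (Col1a1, Col1a2, Col3a1, Dcn, Lum, Pdgfrb and Dpt), against 1928 CPM in Cx3cr1 or Trem2 macrophages of that library, 558 CPM in members at P14 and 367 CPM at P60. At P0 and P7 there were 7 and 6 members, with median mitochondrial shares of 10.4% and 11.9% and 12447 and 11988 UMIs in all, too few for gene levels. Any pair of nerve libraries shared 16 to 40 barcodes, at most 0.382% of the smaller library.

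Members were a small share of macrophages in the first week and a larger one later. The P0 library held 7 members among 171 macrophages (4.09%, interval 1.66% to 8.25%) and the P7 library 6 among 326 (1.84%, interval 0.678% to 3.96%). There were 81 among 737 macrophages at P14 (11.0%, interval 8.82% to 13.5%) and 79 among 656 at P28 (12.0%, interval 9.65% to 14.8%). The P60 library held 272 among 1548 (17.6%, interval 15.7% to 19.6%). The intervals of P14, P28 and P60 lay above that of P7 and that of P60 above all the others. With every cell thinned to 2000 UMIs and shallower cells left out, the shares were 3.01%, 1.67%, 10.2%, 8.95% and 26.5%. Thinning left out 4, 3, 18, 51 and 24 of the members, and at P60 it lowered the number of macrophages with 2 or more markers and Cx3cr1 or Trem2 from 947 to 453. Of all kept barcodes, members were 0.0705%, 0.0535%, 0.896%, 0.581% and 3.78%.

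The absence of Cx3cr1 and Trem2 removed most macrophages that carried 2 or more of the 5 markers. Members and macrophages with both sets together were 11.1% of macrophages at P0 (interval 6.82% to 16.8%), 19.0% at P7 (interval 14.9% to 23.7%) and 36.8% at P14 (interval 33.3% to 40.4%). They were 31.2% at P28 (interval 27.7% to 35.0%) and 78.7% at P60 (interval 76.6% to 80.8%). Thinned to 2000 UMIs, these shares were 8.43%, 6.67%, 24.9%, 21.5% and 56.2%. Macrophages with both sets numbered 12, 56, 190, 126 and 947, and those with Cx3cr1 or Trem2 and fewer than 2 markers 137, 258, 414, 276 and 260. At P60 a macrophage with both sets held a mean of 5.20 Cx3cr1 and Trem2 UMIs, and 188 of the 947 would have been members but for 1 UMI. The choice therefore rests on few molecules per cell at its edge.

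**Figure D1:**
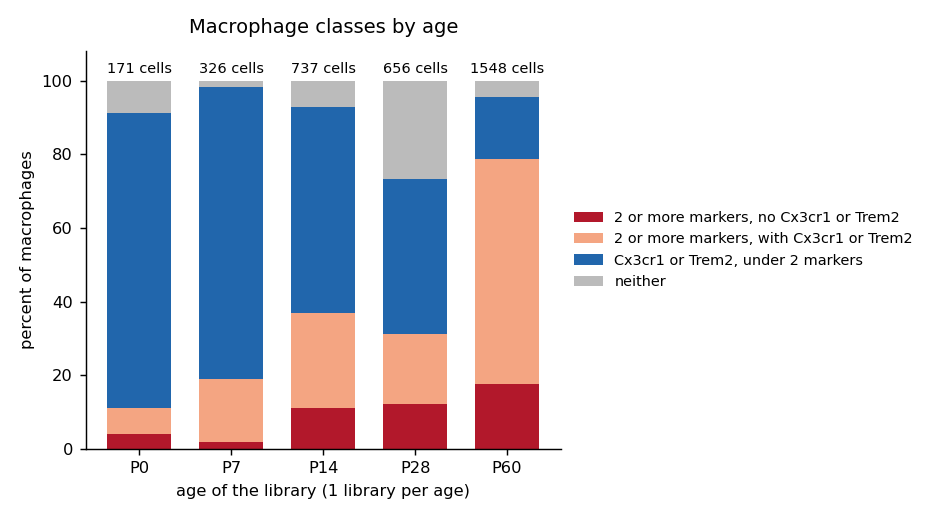
Percent of macrophages (vertical axis) in each of 4 classes in the library of each age, with the number of macrophages above each bar. Members (dark red) reach 17.6% at P60, where macrophages with 2 or more markers that also hold Cx3cr1 or Trem2 make up 61.2%.

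The 5 markers themselves varied among members and ages, which is a description since they chose the cells. The median number of markers per member was 4 at P14, 2 at P28 and 3 at P60. All 5 were found in 33 of 81 members at P14, 1 of 79 at P28 and 46 of 272 at P60. The level of Lyve1, summed over members, was 1178, 452 and 464 CPM at P14, P28 and P60, against 2.71, 7.91 and 12.7 CPM in Cx3cr1 or Trem2 macrophages with fewer than 2 markers. Folr2 was at 1088, 612 and 764 CPM and Cd163 at 1195, 1180 and 678 CPM. Fcna, a secreted ficolin that binds microbial sugars, was at 670, 143 and 212 CPM. Clec10a was at 799, 176 and 509 CPM. Lyve1, Folr2, Fcna and Clec10a were highest in members at P14, and Cd163 was about level between P14 and P28.

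Shares of cells with a UMI give the same markers another view. Lyve1 was found in 74.1% of members at P14, 54.4% at P28 and 64.7% at P60, against 1.00%, 1.80% and 1.62% of glial barcodes. Cd163 was the marker least confined to members, with a UMI in 25.8%, 45.3% and 40.0% of the Cx3cr1 or Trem2 macrophages with fewer than 2 markers. Just outside the threshold, 29, 87 and 40 macrophages at P14, P28 and P60 had 1 marker and otherwise met the choice, and just inside it 15, 44 and 66 members had exactly 2. Thus 55.7% of members at P28 sat at the edge of the choice, against 18.5% at P14 and 24.3% at P60.

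Members were next compared with the macrophages of P14, P28 and P60 that held Cx3cr1 or Trem2 and fewer than 2 markers. Members were shallower in each library, with median depths of 3462, 1736 and 5889.5 UMIs against 4860.5, 3239 and 6641.5. Their median mitochondrial shares were higher, at 5.08%, 6.93% and 3.45% against 2.94%, 2.79% and 2.62%. The part of these differences in the calls was not tested beyond the run on thinned cells. UMIs were summed per library and class, the 3 libraries were the replicates, and the library entered the model because both sums came from the same animals. The 15 genes of the choice were left out, but the other genes come from the same cells that these genes selected. Of 9752 genes, 265 (2.72%) were higher in members and 300 (3.08%) lower, by the quasi-likelihood test of edgeR, Benjamini-Hochberg adjusted, at 0.05. The median log2 fold change over all genes was 0.01. Without P28, 265 were higher and 260 lower. Without P60 the counts were 124 and 168, and without P14 192 and 189. Against all Cx3cr1 or Trem2 macrophages, including those with 2 or more markers, 81 were higher and 71 lower, and 32 of the 60 named genes called here were no longer called.

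The highest fold changes belonged to C-type lectins of the Cd209 family, mouse relatives of the pathogen receptor DC-SIGN. Cd209f had 357, 46 and 555 UMIs in members at P14, P28 and P60, against 3, 1 and 0 in the comparison class. These are levels of 869, 254 and 309 CPM against 1.35, 0.988 and 0 CPM, without overlap between the classes. Cd209f rose by a fitted log2 fold change of 9.17 (SE 0.31, adjusted p = 1.04e-16 by edgeR, n = 3 libraries, higher in 3 of 3). Pooled over libraries, its level in CPM was 505 times that of the comparison class (196 to 1856 by counting error). Against all Cx3cr1 or Trem2 macrophages its call was lost (3.33, adjusted p = 0.337 by edgeR). Cd209g had 118, 7 and 228 UMIs against 2, 0 and 1, and rose by 7.93 (SE 0.35, adjusted p = 3.12e-14). Cd209d, at 136, 27.6 and 82.9 CPM against 0.903, 0 and 6.07 CPM, rose by 4.95 (SE 0.52, adjusted p = 0.000566). Cd209a rose by 2.20 (SE 0.40, adjusted p = 0.00926), from 3.16, 6.92 and 28.2 CPM to 58.4, 16.5 and 102 CPM. All 4 were lowest in members at P28, and Cd209a was the 1 of the 4 whose classes overlapped across libraries.

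Cd209f and Cd209g are neighbours with no annotated gene between them in the RefSeq table. Their promoters are shown because these genes had the highest fold changes. Neither was particular to members: macrophages with 2 or more markers and also Cx3cr1 or Trem2 held 345, 0 and 367 Cd209f UMIs and 96, 0 and 118 Cd209g UMIs at P14, P28 and P60. The 250 bases before each start site (RefSeq, GRCm38.p6, 5′ to 3′ on the gene's strand) are given with the longest run that both hold, 154 bases, in capitals. The Cd209f window is chr8:4105765-4106014 on the minus strand and the Cd209g window chr8:4134486-4134735 on the plus strand.
Cd209f: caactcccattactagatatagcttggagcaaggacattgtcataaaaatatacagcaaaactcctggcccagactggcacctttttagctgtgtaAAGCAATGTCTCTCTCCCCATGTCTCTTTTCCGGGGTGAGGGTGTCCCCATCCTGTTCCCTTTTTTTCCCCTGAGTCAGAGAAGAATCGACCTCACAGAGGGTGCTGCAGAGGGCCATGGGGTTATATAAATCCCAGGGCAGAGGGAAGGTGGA
Cd209g: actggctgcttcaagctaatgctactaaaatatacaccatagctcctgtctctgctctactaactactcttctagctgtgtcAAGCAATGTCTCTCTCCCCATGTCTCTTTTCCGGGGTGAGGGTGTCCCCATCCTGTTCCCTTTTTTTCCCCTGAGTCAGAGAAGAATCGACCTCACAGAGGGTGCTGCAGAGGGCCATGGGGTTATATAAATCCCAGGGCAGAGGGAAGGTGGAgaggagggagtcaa
The run ends 1 base before the Cd209f start site and 15 bases before that of Cd209g. Of 32851 such windows, 4.19% shared a run of 100 bases with the window of another, non-overlapping gene. Annotated transcripts of Cd209f and Cd209g share runs of up to 416 identical bases. In the last 500 bases of each, windows of 90 bases were compared with the other gene. The 705-base Cd209f transcript had 252 of its 411 such windows in Cd209g, and every other annotated transcript of either gene had 0. Reads from shared bases could not be told apart, and how far they affect the separate counts was not tested.

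Other genes with the largest rise in members included an iron exporter, a scavenger receptor and secreted factors. Slc40a1, which encodes ferroportin, the iron exporter, was at 217, 11.0 and 22.8 CPM against 22.6, 0.988 and 3.87 CPM, higher in each library although the ranges overlapped (log2 3.03, SE 0.29, adjusted p = 2.24e-07 by edgeR). Colec12, a scavenger receptor with a collagen-like stalk, was at 183, 33.1 and 82.3 CPM against 12.1 to 14.8 CPM and rose by 2.94 (SE 0.37). Igf1, the insulin-like growth factor, was at 380, 336 and 183 CPM against 93.0, 36.6 and 38.7 CPM, without overlap, and rose by 2.29 (SE 0.19, adjusted p = 6.8e-08). Ecm1, a secreted extracellular matrix protein, was nearly level across members at 256, 281 and 289 CPM, against 39.3, 73.1 and 98.8 CPM, and rose by 1.91 (SE 0.21). Ddx60, an interferon-inducible helicase, rose by 2.74, Tns1 (tensin 1, of focal adhesions) by 2.05, Chp2 by 1.95 and Selenbp1 (a selenium-binding protein) by 1.86. At P28 Slc40a1, Colec12, Cd209a, Chp2 and Selenbp1 rested on 2 to 6 UMIs in members. Against all Cx3cr1 or Trem2 macrophages the calls were lost by edgeR for Colec12 (1.28, adjusted p = 0.48), Slc40a1 (1.63, 0.0804), Igf1 (1.55, 0.341), Ddx60 (1.94, 0.0981), Chp2 (0.73, 0.636) and Selenbp1 (0.90, 0.307). Those of Ecm1 and Tns1 were not lost there. With at least 3 of the 5 markers the call of Ecm1 was lost (1.82, adjusted p = 0.0621 by edgeR). In the Lyve1 split described below, Ecm1 was called lower by edgeR in members with Lyve1 than in those without. No call of that split held without P14.

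**Figure D2:**
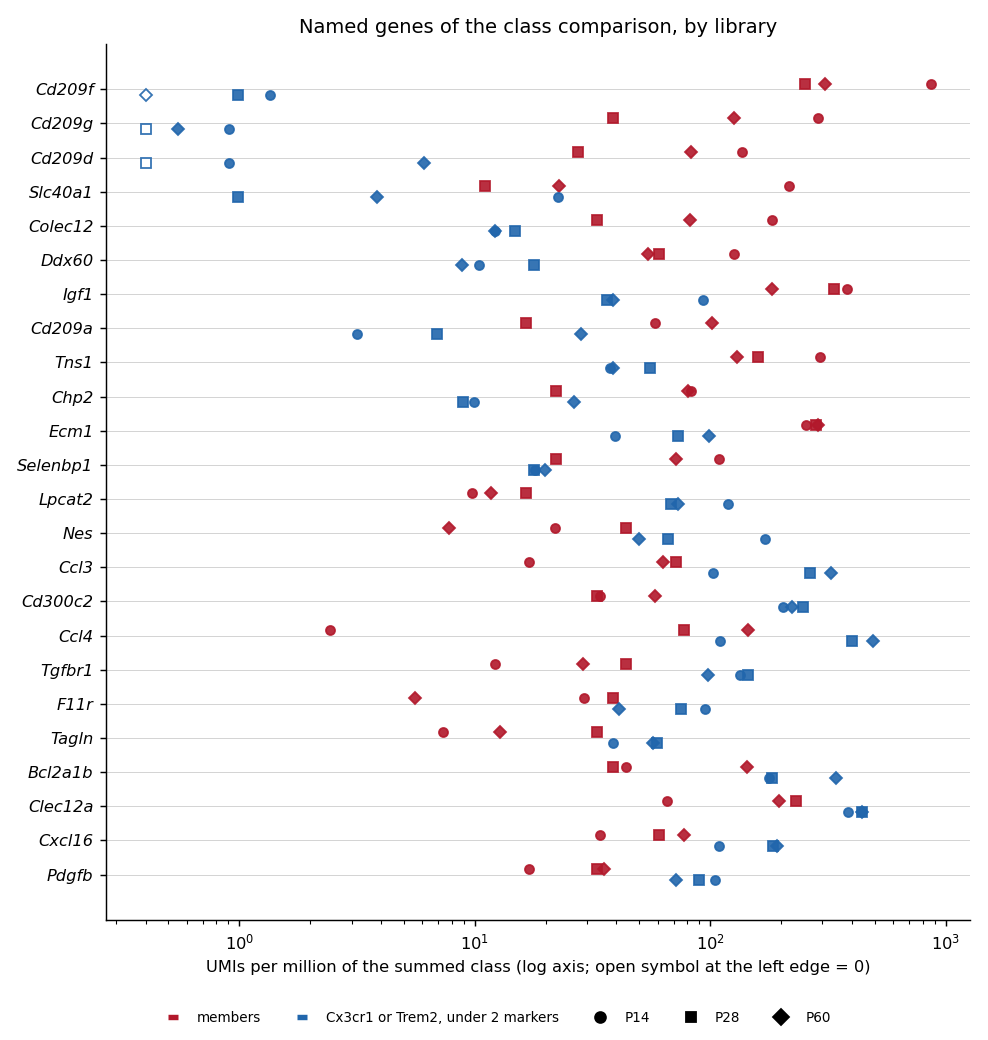
Level of the 12 named genes higher and the 12 lower in members (dark red) than in macrophages with Cx3cr1 or Trem2 and fewer than 2 markers (blue), in CPM on a log axis. Symbols mark the libraries, and open symbols at the left edge stand for 0. Cd209f and Cd209g separate most. Each gene keeps its direction within every library because the naming rule required it.

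The largest falls in members included chemokines and a TGF-beta receptor. Lpcat2, which makes platelet-activating factor, was at 9.74, 16.5 and 11.7 CPM in members against 119, 68.2 and 72.9 CPM and fell by 2.90 on the log2 scale (SE 0.27, adjusted p = 1.08e-07 by edgeR). The chemokine Ccl3 was at 17.0, 71.7 and 63.4 CPM against 103, 266 and 325 CPM and fell by 2.41 (SE 0.19, adjusted p = 1.32e-08). Neither gene's classes overlapped. Its partner Ccl4 fell by 2.35 (SE 0.36, adjusted p = 0.0158), a call that was lost without P28 (adjusted p = 0.129). Tgfbr1, a receptor for TGF-beta, was at 12.2, 44.1 and 28.9 CPM against 134, 144 and 97.7 CPM and fell by 2.20 (SE 0.24). Nes (nestin, an intermediate filament) fell by 2.48, the immune receptor Cd300c2 by 2.36, the survival gene Bcl2a1b by 1.73, the inhibitory lectin Clec12a by 1.58, the chemokine Cxcl16 by 1.57 and the growth factor Pdgfb by 1.55. The junctional protein F11r fell by 2.11 on the log2 scale. Tagln, an actin-binding protein of smooth muscle, fell by 2.06 (adjusted p = 0.000106). Its call was lost without P60 (adjusted p = 0.0546), and with thinned cells the direction turned (0.30, adjusted p = 0.82).

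By list, genes known from resident connective tissue macrophages were the group with the highest share of higher genes. Beside the list counts below stand the shares over all genes, 2.72% higher and 3.08% lower by edgeR. Of 22 such genes, 20 were tested, 14 rose and none fell by edgeR, with a median log2 fold change of 1.83. At an unadjusted p under 0.05 edgeR had 19 higher and none lower, and DESeq2 called 18 and none. Retnla, a secreted resistin-like protein, was picked after its values were seen as the most abundant of them. It was at 16870, 12766 and 11897 CPM in members and 2947, 4617 and 4948 CPM in the comparison class (log2 1.64, SE 0.24, adjusted p = 0.00125 by edgeR), a call lost without P28 (adjusted p = 0.0692) and with thinned cells (0.70, adjusted p = 0.0867). At P28 it was found in 14 of 79 members (17.7%) but 103 of 276 cells of the comparison class (37.3%), so 14 members held that level. Glial barcodes held it in 15.6% at P14 and 12.98% at P60. The phosphatidylserine receptor Timd4, of the same list, was at 151, 71.7 and 82.9 CPM against 12.2, 36.6 and 16.6 CPM, and missed the threshold (2.37, SE 0.50, adjusted p = 0.0802), although it passed by edgeR without P14 (1.71, adjusted p = 4.36e-07) and without P28 (2.85, adjusted p = 7.03e-05).

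Among 17 tested scavenger and phagocytic receptors 4 rose and 3 fell. Mrc1 rose by 0.97 (SE 0.15, adjusted p = 0.000208) and Stab1, a scavenger receptor of endothelium and macrophages, by 0.86 (SE 0.16). Both calls were lost against all Cx3cr1 or Trem2 macrophages (Mrc1 0.54, adjusted p = 0.245 by edgeR, and Stab1 0.38, 0.503). Axl, the TAM family receptor, fell by 1.55 (SE 0.18), a call lost with thinned cells (-1.22, adjusted p = 0.228). Of 17 tested genes known from microglia and endoneurial macrophages none rose and 4 fell by edgeR (0 and 6 at an unadjusted p under 0.05, 0 and 2 by DESeq2). These were Tgfbr1, Tmem119 (by 3.38, on 1, 2 and 0 UMIs in members), Gpr34 (by 0.80) and the nucleotide receptor P2ry6 (by 0.62). The median of that list was -0.30. Its summed level at P14, P28 and P60 was 1271, 5316 and 1727 CPM in members and 2487, 2287 and 1837 CPM in the comparison class. At P28 the sum was thus higher in members. By edgeR, Tmem119 was lost without P14 (adjusted p = 0.215), Gpr34 without P60 (0.129) and P2ry6 without P14 (0.164) or P60 (0.0986).

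Of 13 tested genes of the iron and haem list 6 were higher and 2, Fth1 and Hpgd, lower. Besides Slc40a1, Ncoa4, the receptor for ferritin breakdown, rose by 0.98 (SE 0.20) and Cp (ceruloplasmin, a ferroxidase) by 0.85 (SE 0.20). By edgeR, Cp was lost without P28 (adjusted p = 0.0662) or P60 (0.204), and Ncoa4 without P14 (0.0534) or P60 (0.0512). Hpgd, a prostaglandin-degrading enzyme of this list, fell by 0.92 (SE 0.22, adjusted p = 0.0316), a call lost without P14 (0.147) or P28 (0.111). Of 21 lipid and lysosome genes 4 rose and none fell by edgeR (5 and 2 at an unadjusted p under 0.05, 2 and 0 by DESeq2). They were Abca1 (a cholesterol exporter, by 1.14), Ctsl (0.74), Ctsb (0.72, both cathepsins) and Grn (progranulin, 0.68). Abca1 was lost without P60 (adjusted p = 0.113), Ctsb without P14 (0.0906) and Grn without P14 (0.181) or P60 (0.0699). Complement genes gave 3 higher and 1 lower of 11. Cfp (properdin, which stabilises the alternative pathway convertase) was at 730, 425 and 486 CPM against 221, 172 and 199 CPM and rose by 1.34 (SE 0.16, adjusted p = 8.42e-06). C2 rose by 1.92 on 9 to 19 UMIs, and the anaphylatoxin receptor C3ar1 fell by 0.58. The call of C2 was lost without P60 (adjusted p = 0.132 by edgeR) and that of C3ar1 without each library in turn (0.0539 to 0.164).

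Of 18 tested chemokine and cytokine genes 7 fell and 1 rose by edgeR (4 higher and 7 lower at an unadjusted p under 0.05, 2 and 4 by DESeq2), with a list median of -0.43. The summed level of the list went the other way at P14 (7479 CPM in members, 4546 CPM in the comparison class) and P60 (9038 and 7627 CPM). Growth and matrix factors gave 6 of 19 higher and 1 lower. Pdgfc, a platelet-derived growth factor, rose by 2.97 (SE 0.55) on 12, 4 and 30 UMIs, while Pdgfb of the same family fell. Of 12 tested semaphorins, plexins and neuropilins 4 rose and 1 fell. The receptor Nrp2 was at 127, 110 and 91.2 CPM against 42.9, 45.5 and 26.0 CPM and rose by 1.50 (SE 0.19, adjusted p = 1.92e-05). The ligand Sema4b rose by 1.70 and the receptor Plxna1 by 1.16, and the ligand Sema4d fell by 1.06. Without P14 or without P60 the calls were lost for Sema4b (adjusted p = 0.348 and 0.0796 by edgeR), Plxna1 (0.244 and 0.0625) and Sema4d (0.109 and 0.232).

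MHC class II presentation gave 1 higher (the costimulator Cd40, by 1.18) and 1 lower (the protease Ctss, by 0.87) of 12 tested. The class II chains themselves missed the threshold, with H2-Aa at -0.63 (SE 0.21, adjusted p = 0.0978), H2-Ab1 at -0.66 (0.165), H2-Eb1 at -0.93 (0.154) and the invariant chain Cd74 at -0.56 (0.0873). Without P14, H2-Aa (-0.93, adjusted p = 0.0308 by edgeR), H2-Ab1 (-1.02, 0.0112) and H2-Eb1 (-1.28, 0.000571) passed as lower in members. These chains and Cd74 all passed as lower with at least 3 markers (adjusted p = 0.000201 to 0.0238 by edgeR) and with thinned cells (-0.98 to -1.16, adjusted p = 0.00075 to 0.00983). The call of Cd40 was lost without each library in turn (0.0682 to 0.144). None of 27 transcription factors passed by edgeR or DESeq2 (2 higher and 9 lower at an unadjusted p under 0.05 by edgeR), and Maf and Zeb2 were the most abundant of those named, at 0.37 (adjusted p = 0.193) and 0.27 (0.375). Of 19 cell cycle genes 2 rose, Ube2c and Nusap1, and of 11 interferon genes 1, Isg15. Over all genes edgeR called 2.72% higher and 3.08% lower, so counts this small are not read as a trait of these lists. Nusap1 was lost without P14 (adjusted p = 0.474 by edgeR) or P60 (0.209), Isg15 without P14 (0.0523) or P60 (0.686) and Ube2c without P28 (0.0778) or P60 (0.61). Ube2c turned direction with thinned cells (-0.15, adjusted p = 0.94). Immediate early and heat shock genes gave none higher and 6 of 17 lower by edgeR (0 and 13 at an unadjusted p under 0.05, 0 and 0 by DESeq2), with Hspa1a lower by 0.98, Socs3 by 0.94 and Fos by 0.68. Hspa1a and Socs3 were lost without P60 (adjusted p = 0.485 and 0.144 by edgeR) and Fos without P14 (0.0691).

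Markers of other cell types were read in the same comparison. No tested marker of Schwann, mesenchymal, perineurial or endothelial cells passed by edgeR or DESeq2 (7, 6, 4 and 3 tested). At an unadjusted p under 0.05 edgeR had 1 perineurial marker higher. Over all genes edgeR called 2.72% higher and 3.08% lower, so few calls could arise among so few markers. The median log2 fold changes of these lists were 0.31, 0.63, 0.42 and 0.07. The monocyte receptor Ccr2 was at 825, 546 and 605 CPM in members against 907, 1077 and 956 CPM and fell by 0.68 (SE 0.17), a call lost without P28 (adjusted p = 0.104 by edgeR) or P60 (0.2). Of the mural markers Tagln and Acta2 fell (Acta2 by 1.92, but 0.16 with thinned cells, adjusted p = 0.935), and Cd209a, which dendritic cells also use, was the dendritic marker that rose. The mesenchymal markers stood at 9921 CPM in members and 1928 CPM in the comparison class at P28, and their part in the P28 levels was not tested beyond the values without P28.

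The stricter question was how members differ from macrophages that carry 2 or more of the 5 markers but also Cx3cr1 or Trem2, a comparison added after the first results were seen. Of 8026 genes 78 (0.972%) were higher in members and 55 (0.685%) lower by the same edgeR test and adjustment. This comparison shares its member sums with the one before. Cd209d rose by 2.80 (SE 0.27, adjusted p = 6.13e-06) and Cd209g by 2.37 (SE 0.29, adjusted p = 0.00286). Ednrb, the endothelin B receptor, was at 1066, 116 and 256 CPM in members, 287, 56.6 and 90.4 CPM in macrophages with both sets, and 35.2, 33.6 and 11.6 CPM in those with fewer than 2 markers. Ednrb was not among the 14 resident genes called higher against those with fewer than 2 markers. It rose against the macrophages with both sets by 1.55 (SE 0.17, adjusted p = 1.09e-05). Ecm1 rose by 1.54 (SE 0.15) and Retnla by 1.39 (SE 0.21). Lpcat2 fell by 2.21 and Ccl3 by 1.79. Tgfbr1 fell by 1.31 on the log2 scale.

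Cd209f and Igf1 did not pass in that comparison. Cd209f was at 311, 0 and 52.8 CPM in macrophages with both sets (2.31, adjusted p = 0.54) and Igf1 at 197, 42.0 and 120 CPM (1.11, adjusted p = 0.59). For Cd209f, Cd209g, Igf1 and Slc40a1 the level in macrophages with both sets lay between those of the other classes at P14 and P60. Mrc1 was nearly level between members and macrophages with both sets at P60, at 1769 and 1760 CPM (0.28 over all libraries, adjusted p = 0.61).

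Members also differed among themselves by Lyve1. Those with a Lyve1 UMI were compared with those without over the same libraries. Of 3684 genes 37 (1%) were higher with Lyve1 and 56 (1.52%) lower by the same edgeR test and adjustment. Without P14, which leaves 2 libraries, edgeR called none in either direction, with 219 higher and 219 lower at an unadjusted p under 0.05, and without P28 it called 148 and 160. The split moved with other features of the cells. The number of markers counts Lyve1 itself, so its shift is partly fixed by the split. At P14, 19 of 21 members without Lyve1 had 2 or 3 markers and 14 had over 100 class II UMIs per 10000 UMIs, against 4 and 4 of 60 with Lyve1, and their median depths were 8052 and 3262 UMIs. At P60, 89 of 96 without and 60 of 176 with Lyve1 had 2 or 3 markers. The part of these features in the genes below was not tested.

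Among genes higher with Lyve1, Ednrb was at 1640, 139 and 380 CPM at P14, P28 and P60 against 223, 98.0 and 68.7 CPM without (log2 2.25, SE 0.34, adjusted p = 0.00258 by edgeR). C4b, a complement C4 gene, was at 131, 75.7 and 189 CPM against 12.0, 9.80 and 46.3 CPM, without overlap, and rose by 2.21 (SE 0.33). The adhesion protein Ninj1 rose by 1.75, the transferrin receptor Tfrc by 1.69 and the junctional protein Smagp by 1.69. Cd209g, of the resident list, rose by 2.18 as well.

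Genes higher in members without Lyve1 were led by a ribonuclease. Ear2, an eosinophil-associated ribonuclease also made by macrophages, was at 638, 108 and 373 CPM without Lyve1 and at 49.1, 0 and 55.3 CPM with it (log2 -3.22, SE 0.31, adjusted p = 3.25e-05 by edgeR). Fn1 (fibronectin) was at 3779.5, 441 and 2497 CPM without Lyve1 and 348, 227 and 398 CPM with it, without overlap (-2.63, SE 0.40). The adhesion receptor Cd2 was at -2.91, the retinoic acid synthesising enzyme Aldh1a2 at -2.70 and Olfm1 at -2.42. Transcription factors passed here in both directions, with Tcf4 higher with Lyve1 and Id2, Batf3 and Bhlhe40 lower. Lgals3 and Lpl, of the lipid and lysosome list, were lower with Lyve1, as was the monocyte marker S100a4 (-1.21, SE 0.28, adjusted p = 0.0294). Without P60 the calls of Cd209g (adjusted p = 0.0646), C4b (0.0911), Tcf4 (0.209), Id2 (0.31), Batf3 (0.341), Bhlhe40 (0.339), Lpl (0.662) and S100a4 (0.339) were lost by edgeR, and without P14 all of those named were (0.229 to 0.67). The fold changes without P14 were of like size for several of these genes, with Ear2 at -2.93, Cd2 at -3.13, Aldh1a2 at -2.55, Lgals3 at -1.96, Lpl at -2.33, C4b at 2.02 and Cd209g at 2.21, and smaller for Tfrc (1.05) and S100a4 (-0.89).

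**Figure D3:**
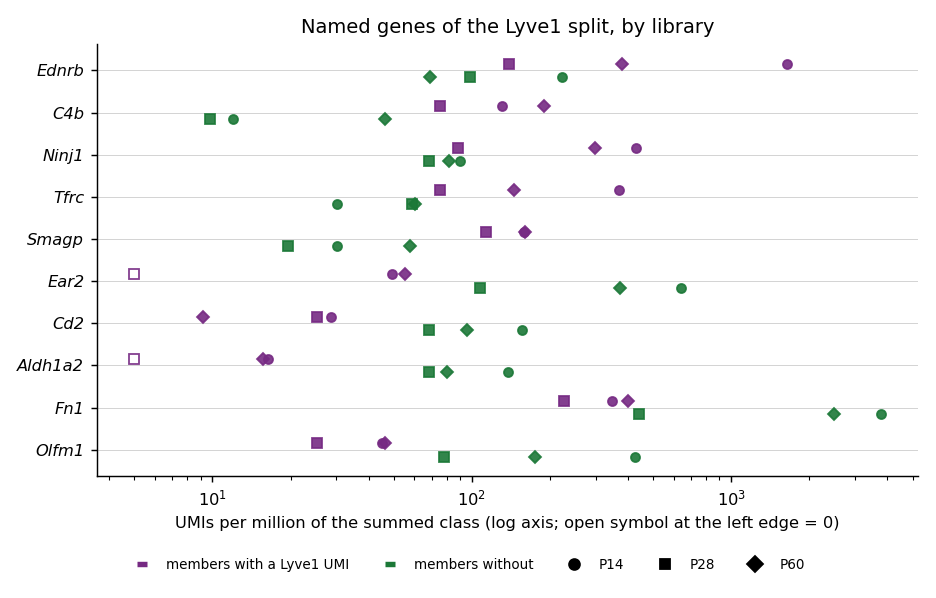
Level of the 5 named genes higher and the 5 lower in members with a Lyve1 UMI (purple) than in members without (green), in CPM on a log axis, with symbols for the libraries and open symbols for 0. The classes differ most at P14 (circles) and least at P28 (squares) for Fn1, with 441 CPM without Lyve1 at P28 and 3779.5 CPM at P14.

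MHC class II split members with 2 or 3 markers from those with 4 or 5 at P14, while the medians of these groups were alike at P60. The measure is the sum of H2-Aa, H2-Ab1, H2-Eb1 and Cd74 UMIs per 10000 UMIs of each cell, given as a description with no test. At P14 the 58 members with 4 or 5 markers had a median of 1.92, 26 of them had no such UMI and 53 were under 20. The 23 members with 2 or 3 markers had a median of 271, and 14 of them were over 100. Among the 58, 4 cells over 100 held 1359 of the 1419 class II UMIs (95.8%). The members with 2 or 3 markers were deeper (median 8026 against 3336 UMIs). At P60 the medians were 378 for 123 members with 4 or 5 markers and 377 for 149 with 2 or 3, and 93 and 125 of them were over 100. The 46 members with all 5 markers had a lower median at P60, 258, against 396, 357 and 419 in those with 2, 3 and 4. At P28 they were 55.4 for 7 members and 116 for 72. Class II UMIs were thus nearly lacking in most members with 4 or 5 markers at P14 and present in most at P60.

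**Figure D4:**
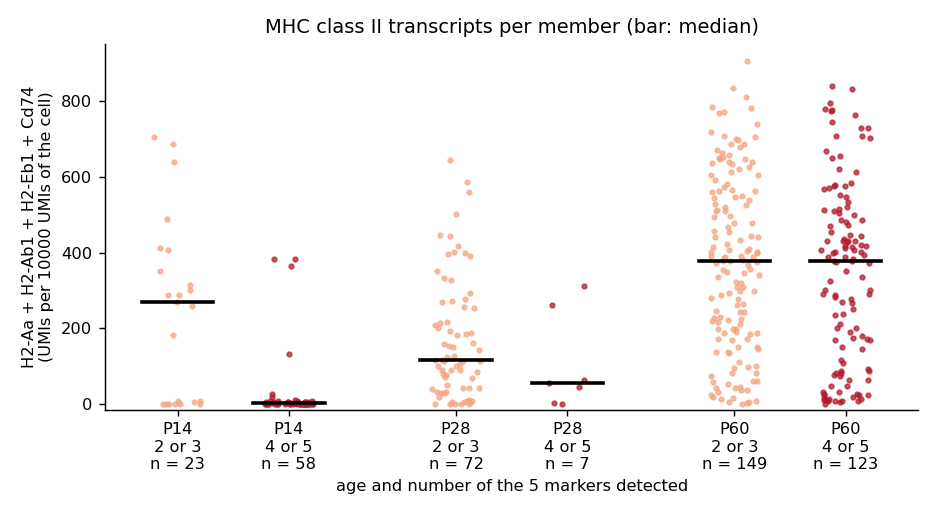
Summed H2-Aa, H2-Ab1, H2-Eb1 and Cd74 UMIs per 10000 UMIs (vertical axis) of each member, by library and number of the 5 markers, with the median as a bar. Members with 4 or 5 markers lie near 0 at P14 (median 1.92) and spread widely at P60 (median 378).

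Between ages, members at P60 were set against those at P14, the earliest library with at least 50 members. Over the 1958 genes at 100 CPM or more in either library, 119 (6.08%) were higher at P60 past 2-fold and 142 (7.25%) lower, and the median ratio was 0.828. With scaling by the median of ratios 202 were higher and 67 lower. A ratio here is the level at P60 over that at P14. Sex makeup moved with age in these libraries, as Xist shows: it had 151 UMIs in members at P14 and 1 at P60.

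Class II genes were higher at P60. H2-Aa was at 3009, 2934 and 7450 CPM at P14, P28 and P60, a ratio of 2.48 (2.33 to 2.63), and H2-Ab1, H2-Eb1 and Cd74 had ratios of 2.12, 2.35 and 2.13. With cells thinned to 2000 UMIs and chosen again the ratios were 12.0, 8.67, 8.98 and 9.52. Summed over these 4 genes the ratio was 2.22 in members, 2.87 in the Cx3cr1 or Trem2 class with fewer markers and 2.70 in macrophages with both sets. Split by markers, it was 6.63 in members with 4 or 5 markers (5684 to 37710 CPM) and 1.14 in members with 2 or 3 (34602 to 39385 CPM). Without the 4 cells that held most class II UMIs at P14, members with 4 or 5 markers were at 285 CPM there. Within members the ratio was thus larger in those with 4 or 5 markers, whether this difference exceeds the variation between libraries could not be tested, and both other classes were higher at P60 as well.

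Pla2g2d, a secreted phospholipase of resident antigen-presenting cells, had 0 UMIs in members at P14, 2 at P28 and 241 at P60, which is at least 18.4-fold higher against a floor of 3 UMIs in the P14 sum. It was also higher at P60 in macrophages with both sets (1.80 to 148 CPM) and in those with fewer markers (1.35 to 30.4 CPM). The chemokine Ccl12 had 1 UMI at P14 (2.44 CPM) and was at 60.7 CPM at P28 and 377 CPM at P60, a ratio of 155 with a counting interval of 27.7 to 6117, and of 17.2 with thinned cells. In the Cx3cr1 or Trem2 class Ccl12 was at 247, 51.4 and 214 CPM, so the P14 members stood apart from the P14 macrophages of that class. Of 10 chemokine and cytokine genes at that level 5 were higher and none lower. Apod, a lipid carrier that fibroblasts also make, was at 9.74, 1577 and 138 CPM (ratio 14.2, but 4.03 with thinned cells), and its P28 level stood beside the 9921 CPM of mesenchymal markers there.

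Immediate early and heat shock genes were higher at P60 in 15 of 16 cases. Egr1 was at 139, 1026 and 1312 CPM (ratio 9.46, 7.27 to 12.5) and Hspa1a at 39.0, 93.7 and 211 CPM. The summed list had ratios of 3.31 in members, 2.81 in the class with fewer markers and 2.86 in macrophages with both sets. Cxcl2 (10.8), Tnf (11.6), Tnfaip3 (9.27), an inhibitor of NF-kB signalling, Ints6 (21.2, but 7.36 with thinned cells) and St3gal6 (14.3), a sialyltransferase, were also among the largest ratios. Whether the libraries were handled alike was not tested.

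Of 8 cell cycle genes 7 were lower at P60 past 2-fold, while Pcna, the polymerase clamp (named as the exception after its value was seen), was higher (2.25). Mki67 was at 343, 88.2 and 50.6 CPM (ratio 0.147, 0.112 to 0.193) and Top2a at 287, 33.1 and 46.2 CPM (0.161). With thinned cells these ratios were 0.0335 and 0.0494. The summed list had ratios of 0.354 in members, 0.256 in the class with fewer markers and 0.315 in macrophages with both sets. Mki67 was found in 9 of 81 members at P14 (11.1%) and 9 of 272 at P60 (3.31%), against 6.50% and 2.55% of glial barcodes. Birc5, Cenpf, Nusap1 and Hist1h1e had ratios of 0.073 to 0.162. Hbb-bs, the haemoglobin of red cells, had 42 UMIs at P14, 0 at P28 and 9 at P60.

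Of 20 resident genes at that level, 5 were lower at P60 past 2-fold and 1 higher. Ednrb had a ratio of 0.240 (0.210 to 0.275), Cd209f 0.355 (0.310 to 0.407), Ltc4s, which makes leukotriene C4, 0.409, Cd209g 0.441 and Igf1 0.482. With thinned cells the ratios of Cd209f, Cd209g and Igf1 were 0.192, 0.225 and 0.268. Mgl2, the lectin paralogue of Clec10a, was at 621, 1108 and 1575 CPM (2.54). The median over the 20 was 0.675, against 0.828 over all genes. In members with 4 or 5 markers the ratios of Ednrb, Cd209f, Ltc4s and Igf1 were 0.294, 0.460, 0.369 and 0.487. In members with 2 or 3 markers Ltc4s and Igf1 were at 1.95 and 1.23, higher at P60. Slc40a1 had the lowest ratio of the iron genes (0.105, 0.071 to 0.154), at 0.171 and 0.203 in the other classes.

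**Figure D5:**
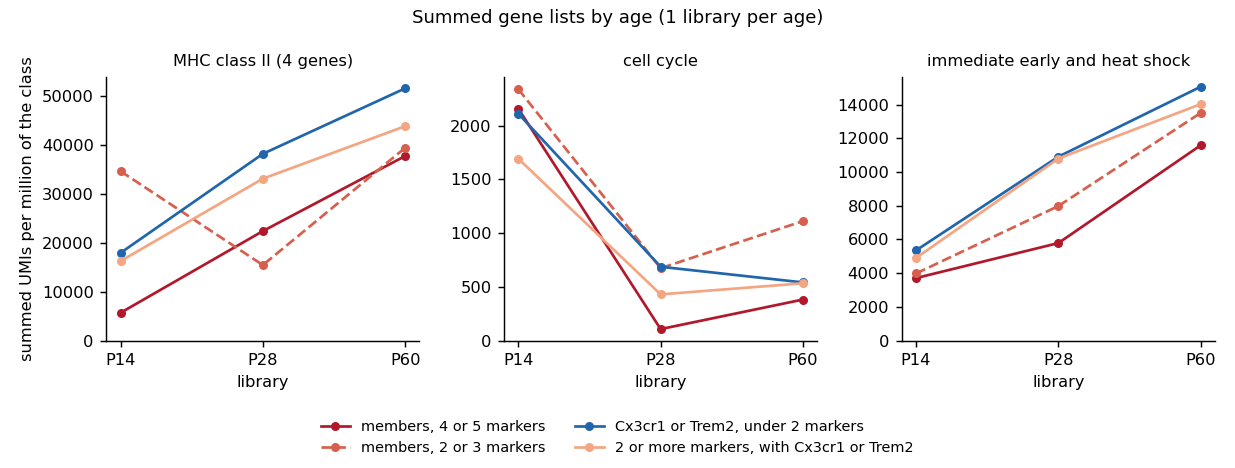
Summed level (CPM, vertical axis) of 4 MHC class II genes, the cell cycle list and the immediate early and heat shock list in the P14, P28 and P60 libraries, for members with 4 or 5 and with 2 or 3 markers and for both other classes. Class II is at 5684 CPM at P14 and 37710 CPM at P60 in members with 4 or 5 markers, and the cell cycle list is lower and the immediate early list higher at P60 in all 4 classes.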

How the data were processed

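Each value deposited by the authors is a raw UMI count of 1 gene in 1 barcode, for barcodes called as cells. Cell Ranger was version 5.0.1 for P0, P14, P28 and P60 and 7.0.0 for P7, per the file headers. The submitters' processing notes name the build mm9 and Seurat, while the gene identifiers are those of a GRCm38 annotation. Intron counting is not given in the sources used here. Genes shared by identifier (52081) held 96.2% to 99.4% of each nerve library's UMIs, and nerve libraries held 60763221 to 101441907 UMIs.

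Barcodes with at least 500 UMIs and 300 genes and at most 20% mitochondrial UMIs were kept. Doublets were removed only through the excluded genes, with Scrublet (scanpy 1.11.5) as an alternative. UMIs were summed per library and class for libraries with at least 20 cells of each class and compared in R 4.3.3 by edgeR 4.0.16 (TMM, filterByExpr, robust quasi-likelihood, library and class as terms, two-sided, Benjamini-Hochberg adjustment at 0.05). The 2 class sums within a library share their animals, which is the pairing. Mean TMM factors of members and comparison class differed by 0.11 (log2). SE is the log2 fold change divided by the root of F. Pools of 1 library per age are the replicates, so p-values measure how the difference within a library varies between libraries of different age. DESeq2 1.42.0 was an alternative. The fits were also run on simulated counts whose set class differences were alike in every library. That run cannot speak for class differences that vary between libraries.

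Ratios between ages carry exact conditional Poisson intervals. Named genes were the 12 (Lyve1 split 5, age 10) with the largest change in each direction among called genes, at a mean of 50 CPM or more in the higher class and with 1 direction in every library, plus 2 to 4 genes per list. Age genes were those whose P28 level lay on the same side of P14. Mitochondrial, ribosomal and unnamed genes were skipped. Acta2, Batf3, Bhlhe40, Ccr2, Id2, Lgals3, Lpl, Ltc4s, Mgl2, Retnla, S100a4, Tcf4, Timd4 and the class II chains with Cd74 fell outside this rule and were chosen after their values were seen. The members, the 15 gene lists and 13 marker lists were chosen with earlier results of these data known. Results on some genes are not reported here.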

Additional observations from a re-analysis of the deposited data

Results flagged for a closer look

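The dorsal root ganglion library of P14 (labelled as 4 males and 4 females, treated as nuclei) lies outside the comparisons. By the same choice 13 of its 5839 barcodes were members, of 48 macrophages, which is above the 3 counts that a count of 0 allows. Xist had 3 UMIs in that library (0.145 CPM), which goes against the labelled females. The members' median depth was 2285 UMIs, and Mrc1 was found in all 13, against 14 of 1951 glial barcodes of that library (0.718%, median 2220 UMIs). It was also found in 12 of 12 macrophages with Cx3cr1 or Trem2 and fewer than 2 markers and 3 of 3 with both sets. The library has no second sample, and no comparison with the nerve was made.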

How the results depend on the processing

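Counts of genes between members and the Cx3cr1 or Trem2 class moved with the tool and the cells taken: 87 higher and 101 lower with DESeq2 (2269 without an adjusted p), 119 and 190 with cells thinned to 2000 UMIs, and 451 lower with at least 3 markers. They were 81 and 71 against all Cx3cr1 or Trem2 macrophages and 78 and 55 against those with both sets, a comparison added after the data were seen. Without the library as replicate block 6 and 5 passed, so the calls rest on the pairing within libraries. Leaving out 1 library gave 124 to 265 higher and 168 to 260 lower. All calls shared with any alternative kept their direction. With thinned cells Tagln (0.30), Acta2 (0.16) and Ube2c (-0.15) turned.

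The Lyve1 split gave 7 and 22 genes with DESeq2, 117 and 150 with no filter on low counts and 0 and 0 with no replicate block (156 and 120 at an unadjusted p under 0.05 by edgeR). Leaving out 1 library gave 0 to 148 higher and 0 to 160 lower. The split was not run on thinned cells, since fewer than 2 libraries had 20 cells on each side.

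Past 2-fold between P14 and P60 were 202 higher and 67 lower genes with median-of-ratios scaling, which centres the median ratio, 207 and 394 with thinned cells and 194 and 319 from 50 CPM. In members with 4 or 5 markers 227 were lower, and in those with 2 or 3 Igf1 (1.23) and Ltc4s (1.95) turned, both splits added after the data were seen. The share of members was 0.585% at P0, 5.34% at P28 and 13.3% at P60 with at least 3 markers, and 8.95% at P28 and 26.5% at P60 thinned. For these moves the cause was not tested. Depth limits P0, P7 and P28, where members held 12447, 11988 and 181337 UMIs.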
